A study of Homo sapiens with 12 samples.

Results

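Mitochondrial ribosomal protein genes, the nuclear genes whose symbols begin with MRPL or MRPS, were examined in MNNG/HOS cells treated with NXP800. These cells are an established human bone tumour line, obtained from HOS osteosarcoma cells with the carcinogen MNNG, and NXP800 is an orally available small molecule that was first aimed at the heat shock transcription factor HSF1. The members were chosen by symbol alone, as every symbol made of MRPL or MRPS, a number and at most one letter from A to C. This rule gave 78 of the 43236 genes in the counts, 49 MRPL genes and 29 MRPS genes. The cells received the solvent DMSO for 6 h, 300 nM NXP800 for 6 h, DMSO for 24 h or 300 nM NXP800 for 24 h, and each of these 4 conditions was sequenced as 3 mRNA libraries. All 12 libraries came from 1 cell line, and the labels do not say whether the replicates were separate cultures, so p-values measure only the spread between these libraries, which may be technical.

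The mitochondrial ribosome translates the few proteins encoded by mitochondrial DNA, which are core subunits of the respiratory chain and the ATP synthase. Its ribosomal RNAs are transcribed inside the organelle, while all of its proteins are encoded in the nucleus, made in the cytosol and imported. The large subunit holds the peptidyl transferase centre and the exit tunnel, and the small subunit holds the mRNA path and the decoding site. Many of the proteins have a counterpart in bacterial ribosomes, and others are particular to mitochondria. Symbols do not always give the place of the protein: the products of *MRPS18A* and *MRPS30* are found in the large subunit, and *MRPS36* encodes a protein placed in another mitochondrial complex.

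The libraries held 30810614 to 31947656 counts on genes, of which the 78 genes took 0.570 to 0.679%. Reads outside all annotated genes made up 6.66 to 8.14% in the 6 h libraries but 2.73 to 3.67% in the 24 h libraries, so treatment was compared within each time only. Of 8 mesenchymal and osteoblastic markers, *COL1A2* stayed under 1 CPM (a gene's counts relative to the library size after edgeR's TMM correction, in parts per 1e6) in every library, and the summed level of the list, most of it *VIM*, was 5271 to 5462 CPM in DMSO and 4451 to 4583 CPM in NXP800 at 6 h and 6216 to 7073 CPM against 4067 to 4896 CPM at 24 h. Within it 4 genes fell and 2 rose at 6 h, and 6 fell and 1 rose at 24 h: the osteoblast factor *RUNX2* rose by 0.71 and 0.36 on the log2 scale (edgeR adjusted p = 4.08e-05 and 0.00879), while *THY1* changed by -1.73 and -2.26. Of 8 markers of other cell types, *PTPRC*, *CDH1*, *PECAM1*, *CDH5* and *ADIPOQ* stayed under 1 CPM in every library. The summed level of this list, nearly all *KRT18*, was 745.1 to 864.3 CPM in DMSO and 687.9 to 770.6 CPM in NXP800 at 6 h, and 948.6 to 996.8 CPM against 710.6 to 881.0 CPM at 24 h. Of its 4 tested genes *PECAM1* fell at 6 h (-1.17, adjusted p = 0.0157), and at 24 h *KRT18* fell (-0.43, adjusted p = 0.000423) while *CD68* (0.90, adjusted p = 1.07e-05) and *EPCAM* (0.81, adjusted p = 4.85e-06) rose. The part of these shifts in the results on the ribosomal protein genes was not tested.

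Among the members that could be tested, levels per length of transcript differed widely within the family. The mean over the 12 libraries was 208.4 CPM per kb for *MRPL41*, 182.8 CPM per kb for *MRPL12*, 180.9 CPM per kb for *MRPS2*, 164.5 CPM per kb for *MRPL21* and 164.0 CPM per kb for *MRPL9*, the 5 highest. The lowest were *MRPL42* at 5.93 CPM per kb, *MRPS33* at 6.69 CPM per kb, *MRPS14* at 7.69 CPM per kb and *MRPL19* at 8.16 CPM per kb. For *MRPL42* the annotated transcript is 15557 bases long, which lowers its value per length. *MRPS24* was the only member with too few counts to test, at 0.0365 CPM per kb. By GENCODE, 23.2% of its exon length is shared with the read-through gene *URGCP-MRPS24*, which had 0 counts in every library. Reads were counted on RefSeq genes and ambiguous reads were left out, so low expression of *MRPS24* and reads left out cannot be told apart. The other 77 members passed the filter on low counts.

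After 6 h of NXP800, mitochondrial ribosomal protein transcripts that changed were mainly lower, by small amounts. Of the 77 tested, 38 (49.4%) fell and 6 (7.79%) rose at an adjusted p below 0.05 (edgeR, quasi-likelihood test, with p-values adjusted by Benjamini-Hochberg across the 15979 genes tested), where 27.8% of all genes were lower and 25.0% higher. Among the 9702 genes whose mean log2 CPM was 3 or more, 32.5% were lower and 29.2% higher. The median log2 fold change of the members was -0.18, against -0.05 over all tested genes, and 57 of the 77 estimates lay below 0, against 8558 of 15979. After 24 h, 37 members (48.1%) fell and 7 (9.09%) rose, where 28.6% of all genes were lower and 27.5% higher, or 34.5% and 29.3% among the 9702 better expressed genes. The median was -0.17 at 24 h, against 0.00 over all tested genes. In these bulk libraries, fewer cells that express a gene and less RNA per cell cannot be told apart. On library sizes without TMM scaling the median of the members at 24 h was -0.08, while that of all genes was 0.09.

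In both subunits more genes fell than rose, although at 24 h the MRPS shares lay nearer those of all tested genes than the MRPL shares did. At 6 h, 25 of 49 MRPL genes (51.0%) fell and 2 (4.08%) rose, with a median log2 fold change of -0.18. Of 28 tested MRPS genes 13 (46.4%) fell and 4 (14.3%) rose, with a median of -0.17. Of all tested genes 27.8% were lower and 25.0% higher at that time. At 24 h, 26 MRPL genes (53.1%) fell and none rose, with a median of -0.18, whereas 11 MRPS genes (39.3%) fell and 7 (25.0%) rose, with a median of -0.15. Of all tested genes 28.6% were lower and 27.5% higher at 24 h, or 34.5% and 29.3% of the 9702 better expressed genes. No MRPL gene was higher at 24 h at an unadjusted p below 0.05 either (0 genes), nor in edgeR's fit with the replicate block (0 genes) or in DESeq2 (0 genes). However, on library size only *MRPL50* (0.18, adjusted p = 0.0247) and *MRPL52* (0.17, adjusted p = 0.0423) rose, and *MRPL52* also rose without NXP800 24 h replicate 2 (0.19, adjusted p = 0.0301). On library size only the medians at 24 h were -0.088 for the MRPL and -0.056 for the MRPS genes. With *MRPS18A* and *MRPS30* counted with the large subunit and *MRPS36* left out, 26 of 51 large subunit genes fell and 1 rose at 24 h, against 11 and 6 of 25 small subunit genes, and the medians were -0.17 and -0.17. Without NXP800 24 h replicate 2 the median of the MRPL genes at 24 h was -0.10 and that of the MRPS genes was -0.08. Whether the subunits differ was not tested, since genes of one subunit are not replicates.

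**Figure D1:**
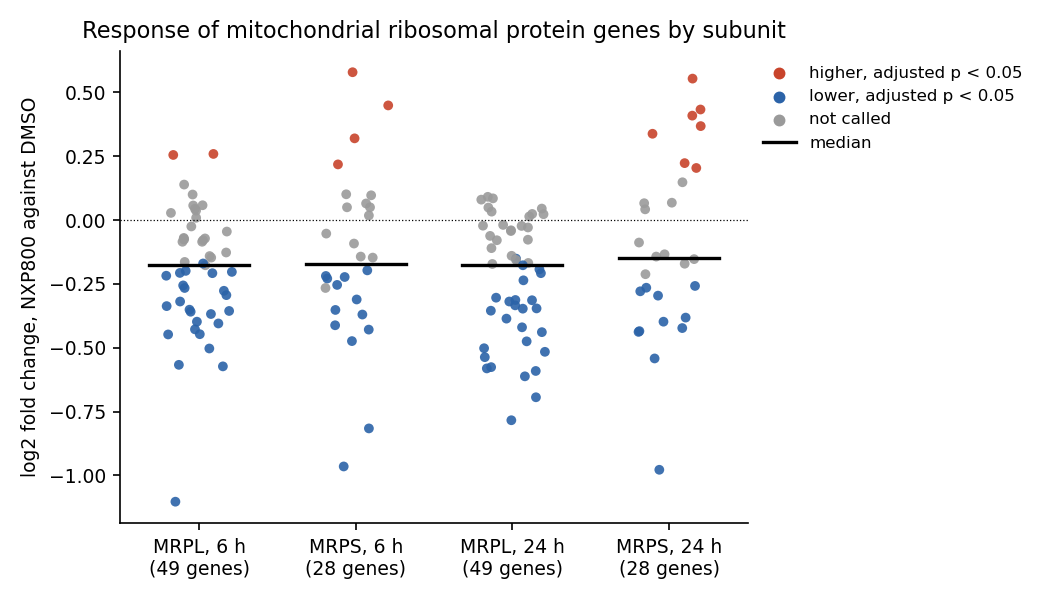
Each point is the log2 fold change (vertical axis) of 1 gene between NXP800 and DMSO, for 49 MRPL and 28 tested MRPS genes at 6 h and 24 h. Blue points fell and red points rose at an adjusted p below 0.05, and black lines are medians, which lie between -0.15 and -0.18; all red points at 24 h are MRPS genes, whereas on library size only 2 MRPL genes also rose.

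With TMM scaling, the summed level of each subunit's genes was also lower in every NXP800 library than in every DMSO library of the same time, but for the MRPS genes at 24 h this did not hold for shares of the unscaled counts. For the MRPL genes the sums at 6 h were 4018.7, 4179.2 and 3886.8 CPM in DMSO and 3662.2, 3572.3 and 3505.3 CPM in NXP800. At 24 h they were 4268.3, 4207.4 and 4390.2 CPM in DMSO and 3739.8, 3374.7 and 3699.6 CPM in NXP800. The groups did not overlap at either time, and the mean of the MRPL sums differed by -11.1% at 6 h and by -15.9% at 24 h. For the MRPS genes the sums were 2410.4, 2450.6 and 2277.9 CPM against 2266.4, 2209.0 and 2157.4 CPM at 6 h. They were 2425.0, 2430.4 and 2507.5 CPM against 2292.3, 2159.6 and 2309.9 CPM at 24 h. The means of the MRPS sums differed by -7.09% and -8.16%, again without overlap, with a narrow gap at 6 h. As shares of the unscaled counts, the MRPS genes at 24 h took 0.227, 0.230 and 0.230% in DMSO and 0.220, 0.223 and 0.229% in NXP800, so the groups overlapped and the means differed by -2.28%. The other unscaled differences were -10.1% and -10.6% for the MRPL genes at 6 h and 24 h and -5.96% for the MRPS genes at 6 h, without overlap. The ratio of the MRPL sum to the MRPS sum was 1.67 to 1.71 in DMSO and 1.62 in each NXP800 library at 6 h, and 1.73 to 1.76 against 1.56 to 1.63 at 24 h. The summed RNA of the MRPL genes was therefore lower relative to that of the MRPS genes in all 6 NXP800 libraries. Genes with high levels weigh most in such sums. The mean MRPS sum at 6 h, 2379.6 CPM in DMSO and 2210.9 CPM in NXP800, includes *MRPS10*, which rose from 147.9 to 221.1 CPM. At 24 h *MRPS10* rose from 115.8 to 156.3 CPM. The ratio without *MRPS10* was not made, so it cannot be read as a difference shared by the MRPS genes. These sums go by symbol, so *MRPS18A*, *MRPS30* and *MRPS36* count with the MRPS genes. The sums were not made with *MRPS18A* and *MRPS30* placed in the large subunit, so the ratio of the subunits themselves is not given.

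**Figure D2:**
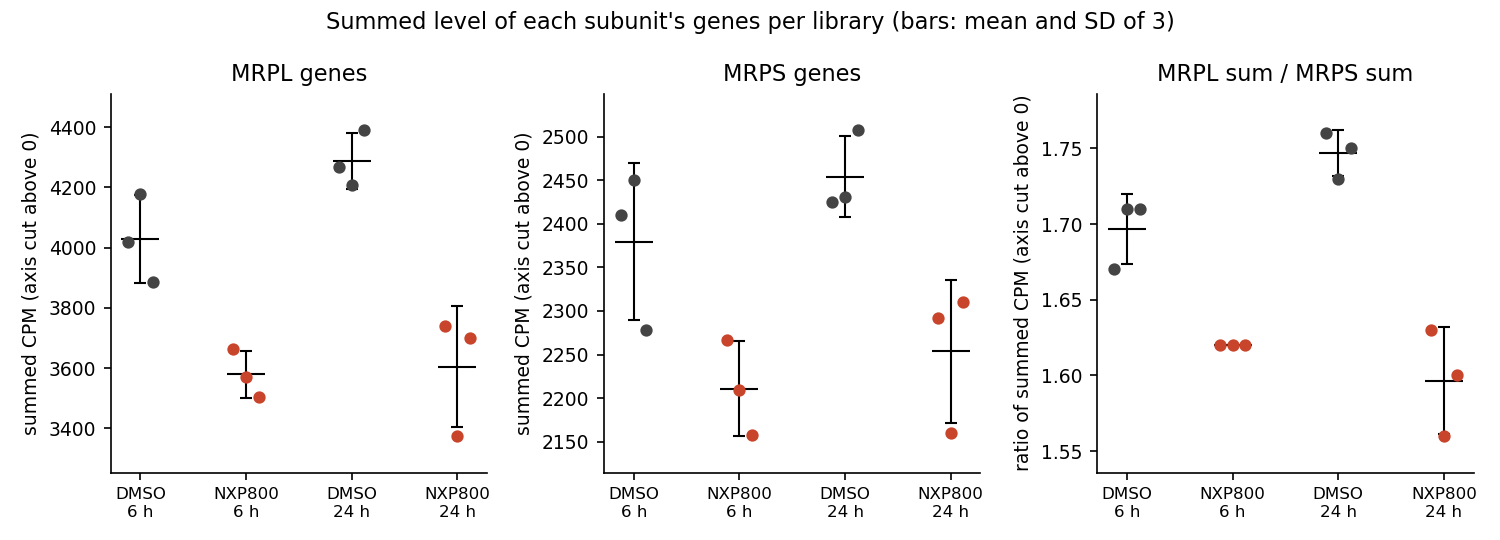
Points are the summed CPM of the 49 MRPL genes (left), of the 29 MRPS genes (middle) and the ratio of both sums (right) in each library, with the mean and SD of 3 libraries as bars. The MRPS sums include *MRPS10*, which rose at both times, and the ratio without it was not made. The axes do not start at 0; in each panel the NXP800 libraries (red) lie below the DMSO libraries (grey) of the same time, although for the MRPS genes at 24 h they overlap without TMM scaling, and the ratio lies between 1.56 and 1.63 in NXP800 against 1.67 to 1.76 in DMSO.

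The largest falls were in genes of both subunits. *MRPL34*, the counterpart of bacterial bL34, lies on chromosome 19 (chr19:17292573-17306843 of GRCh38.p14). Its level was 64.5, 71.2 and 62.9 CPM in DMSO and 29.3, 31.5 and 31.6 CPM in NXP800 at 6 h, and 71.2, 80.3 and 80.9 CPM against 46.8, 49.5 and 59.6 CPM at 24 h. Every NXP800 library was below every DMSO library of its time, and the drop was deeper at 6 h. The change on the log2 scale was -1.10 (standard error 0.088, edgeR adjusted p = 4.73e-08) at 6 h and -0.58 (0.086, adjusted p = 3.12e-05) at 24 h, and *MRPL34* was the only member to change more than 2-fold. Of its exon length, 14.6% is shared with *ABHD8*.

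*MRPS34*, a small subunit protein particular to mitochondria, had the largest fall at 24 h. It lies on the minus strand of chromosome 16 (chr16:1771895-1773134). The 6 h libraries gave 141.9, 148.5 and 144.2 CPM in DMSO and 84.3, 75.5 and 87.0 CPM in NXP800. The 24 h libraries gave 188.4, 194.5 and 206.6 CPM in DMSO and 98.4, 85.7 and 115.2 CPM in NXP800. The groups lay far apart at both times, with log2 fold changes of -0.82 (standard error 0.088, edgeR adjusted p = 1.13e-06) and -0.98 (0.087, adjusted p = 1.14e-07). The gene shares 31.2% of its exon length with *EME2*.

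*MRPS26*, another small subunit protein particular to mitochondria (chr20:3046052-3048250), shares no exon length with another gene. It gave 46.5, 51.8 and 47.3 CPM in DMSO and 23.5, 24.0 and 27.1 CPM in NXP800 at 6 h, close to a 2-fold drop. At 24 h the levels were 52.0, 50.4 and 53.6 CPM against 35.0, 31.6 and 40.6 CPM. The log2 fold changes were -0.96 (standard error 0.089, edgeR adjusted p = 2.04e-07) and -0.54 (0.087, adjusted p = 6.1e-05). *MRPL43*, a large subunit protein particular to mitochondria, was lower at both times, and its responses did not pass the test for a difference between the times (-0.21, adjusted p = 0.138). It went from 40.1 ± 0.865 to 27.0 ± 2.26 CPM at 6 h and from 58.1 ± 2.40 to 33.8 ± 1.38 CPM at 24 h (SD, n = 3 each), with log2 fold changes of -0.57 (edgeR adjusted p = 5.72e-06) and -0.78 (adjusted p = 1.28e-07). It shares 38.1% of its exon length with *SEMA4G* and *TWNK*.

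Other core proteins of the large subunit fell to a similar degree at both times. *MRPL16*, the counterpart of bacterial uL16, changed by -0.57 (6 h) and -0.61 (24 h) on the log2 scale, and *MRPL20*, the counterpart of bL20, had -0.50 and -0.59. *MRPL17*, the counterpart of bL17 near the exit tunnel, had -0.45 and -0.33. In the small subunit *MRPS27*, a pentatricopeptide repeat protein, had -0.47 and -0.38. *MRPS12*, the counterpart of the decoding site protein uS12, had -0.41 and -0.43. All of these passed the edgeR threshold, with adjusted p of at most 0.000979 at either time. *MRPL23*, the counterpart of the exit tunnel protein uL23, differed between the times. Its levels were 23.7, 23.7 and 24.5 CPM in DMSO and 22.6, 19.5 and 21.5 CPM with NXP800 at 6 h, which is -0.18 on the log2 scale (edgeR adjusted p = 0.0951, or 0.0256 with the replicate block). At 24 h they were 37.3, 33.7 and 35.7 CPM in DMSO and 24.7, 20.6 and 20.6 CPM with NXP800, which is -0.69 on the log2 scale (adjusted p = 3.72e-06). The NXP800 libraries lay below the DMSO libraries at both times, with a wide gap only at 24 h.

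A few small subunit genes moved the other way. *MRPS10*, the counterpart of bacterial uS10 (chr6:42206807-42217861, minus strand), gave 145.2, 159.6 and 139.0 CPM in DMSO and 221.8, 235.2 and 206.2 CPM in NXP800 at 6 h. At 24 h it gave 114.0, 110.3 and 123.0 CPM in DMSO and 156.4, 153.2 and 159.3 CPM in NXP800. All NXP800 libraries were above all DMSO libraries of their time, with log2 fold changes of 0.58 (standard error 0.068, edgeR adjusted p = 2.98e-06) and 0.43 (0.068, adjusted p = 5.21e-05). *MRPS31*, a small subunit protein particular to mitochondria (chr13:40729128-40771190), gave 35.7, 33.2 and 28.9 CPM against 47.2, 44.2 and 42.0 CPM at 6 h. It gave 21.1, 22.1 and 24.7 CPM against 32.7, 35.1 and 31.9 CPM at 24 h. The log2 fold changes of *MRPS31* were 0.45 (standard error 0.086, edgeR adjusted p = 0.000356) and 0.55 (0.088, adjusted p = 5.53e-05), and the first was 0.29 with the replicate block and offsets for GC content and length. Its pseudogene *MRPS31P5* was counted apart and rose by 1.12 at 6 h (adjusted p = 0.000793), and how reads were shared between such copies was not tested. *MRPS16*, the counterpart of bS16, gave 111.0, 107.7 and 109.2 CPM against 134.6, 138.7 and 136.2 CPM at 6 h and 125.4, 121.9 and 107.5 CPM against 159.2, 157.7 and 141.0 CPM at 24 h. Its log2 fold changes were 0.32 (edgeR adjusted p = 0.000722) and 0.37 (adjusted p = 0.000182), and these 3 genes were the only members that rose at both times.

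**Figure D3:**
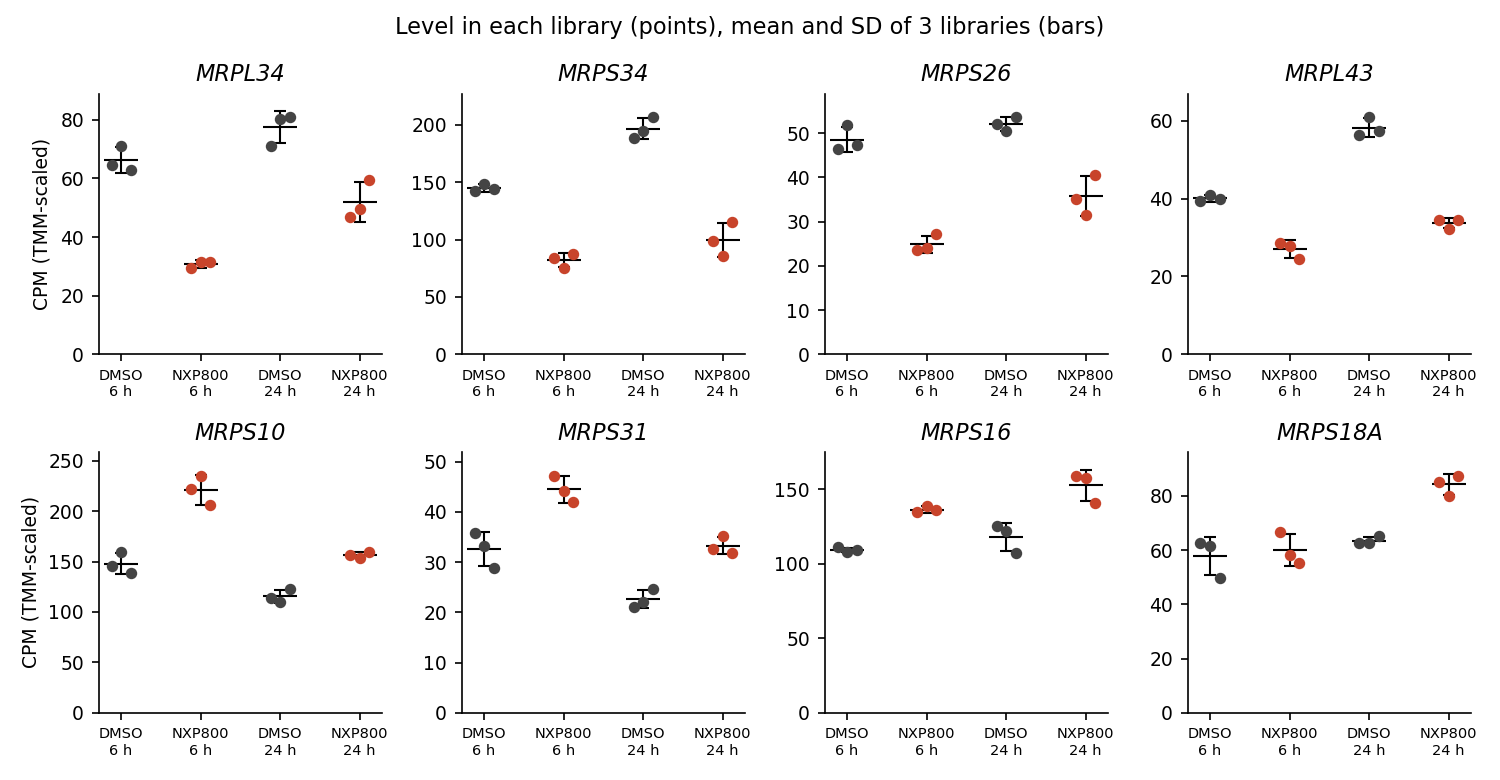
Points show the TMM-scaled CPM (vertical axis, from 0) of 8 genes in each of the 12 libraries, DMSO in grey and NXP800 in red, with the mean and SD of 3 libraries as bars. *MRPL34*, *MRPS34*, *MRPS26* and *MRPL43* are lower in every NXP800 library of a time, *MRPS10*, *MRPS31* and *MRPS16* are higher, and *MRPS18A* is higher at 24 h only.

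The remaining rises were seen at 1 time. At 6 h they were *MRPL10*, the stalk base protein uL10, with a log2 fold change of 0.26 (edgeR adjusted p = 0.00278), *MRPL15*, the counterpart of uL15, with 0.26 (adjusted p = 0.00243), and *MRPS30* with 0.22 (adjusted p = 0.00858). With the block and these offsets *MRPL15* had 0.17 and *MRPS30* 0.14 at 6 h, both still called. At 24 h *MRPL10* had 0.05 (adjusted p = 0.531), *MRPL15* had 0.02 (adjusted p = 0.77) and *MRPS30* had 0.15 (adjusted p = 0.0586, or 0.00788 with the replicate block). At 24 h the rises were *MRPS18A* with 0.41 (adjusted p = 0.000699), *MRPS18C* with 0.34 (adjusted p = 0.00171), *MRPS35*, a small subunit protein, with 0.22 (adjusted p = 0.00464) and *MRPS21*, the counterpart of bS21, with 0.20 (adjusted p = 0.00591). At 6 h these 4 had log2 fold changes between 0.02 and 0.07 and none passed the threshold (adjusted p from 0.381 to 0.865). With the block and offsets *MRPS18C* was instead lower at 6 h (-0.197, adjusted p = 0.00206), and *MRPS21* (-0.021) and *MRPS35* (-0.088) also turned sign without a call.

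The 3 human paralogues of bacterial bS18 did not move alike. *MRPS18A* gave 62.5, 61.4 and 49.8 CPM in DMSO and 66.6, 58.1 and 55.1 CPM in NXP800 at 6 h, where the groups overlapped, and 62.6, 62.7 and 65.0 CPM against 85.1, 80.1 and 87.4 CPM at 24 h, where they were apart. *MRPS18C* gave 50.7, 47.0 and 45.6 CPM against 53.7, 44.2 and 47.2 CPM at 6 h and 31.1, 29.0 and 32.9 CPM against 40.1, 38.3 and 39.2 CPM at 24 h, the same order. *MRPS18B* gave 192.8, 190.5 and 178.4 CPM against 178.4, 167.2 and 161.8 CPM at 6 h and 195.7, 190.2 and 191.3 CPM against 164.9, 148.3 and 167.1 CPM at 24 h. It was the only paralogue that fell, with log2 fold changes of -0.15 (edgeR adjusted p = 0.0595, or 0.0117 with the replicate block) and -0.27 (adjusted p = 0.00183). *MRPS18A* shares 50.9% of its exon length with *RSPH9* and *MRPS18C* 40.2% with *ABRAXAS1*, while *MRPS18B* shares none.

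Within the large subunit the members were counted by structural region, beside shares of 27.8% (6 h) and 28.6% (24 h) that fell among all tested genes. The stalk, which recruits translation factors, has 5 members, of which 2 fell and 1 rose at 6 h and 2 fell and none rose at 24 h. In it *MRPL12*, the counterpart of bL12, fell from 207.4 ± 9.89 to 152.1 ± 8.88 CPM at 6 h and from 226.7 ± 4.04 to 151.5 ± 13.3 CPM at 24 h (SD, n = 3 each), with log2 fold changes of -0.45 (edgeR adjusted p = 5.31e-05) and -0.58 (adjusted p = 3.01e-06). An unnamed gene model overlaps 69.5% of its exon length. Its neighbour in the stalk, *MRPL10*, rose at 6 h as given above. Of 9 genes of the central protuberance, which contacts the small subunit and tRNA, 7 fell at 6 h and 5 at 24 h. *MRPL18*, one of them, had log2 fold changes of -0.43 (adjusted p = 0.00101) and -0.47 (adjusted p = 0.000355). *MRPL58*, a peptidyl-tRNA hydrolase built into the same region, had 0.14 (adjusted p = 0.107, or 0.0352 with the replicate block) and -0.08 (adjusted p = 0.351). Of 8 genes around the exit tunnel and the membrane anchor, 3 fell at each time. *MRPL45*, which holds the ribosome at the inner membrane, had 0.03 (adjusted p = 0.793) and 0.09 (adjusted p = 0.394), and its groups overlapped at both times.

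Proteins with a bacterial counterpart and proteins particular to mitochondria gave like counts. Of all tested genes 27.8% were lower and 25.0% higher at 6 h, and 28.6% and 27.5% at 24 h. In the large subunit 15 of 30 genes with a bacterial counterpart fell at 6 h and 17 at 24 h, against 10 and 9 of 19 genes particular to mitochondria. In the small subunit the counts were 7 and 6 of 15 tested genes with a counterpart, and 6 and 5 of 10 particular to mitochondria. Medians of the log2 fold change in these 4 classes ranged from -0.22 to -0.14 over both times. Among the 42 members that share under 5% of their exon length with another gene, 20 (47.6%) fell and 5 (11.9%) rose at 6 h. At 24 h 18 (42.9%) of these 42 fell and 4 (9.52%) rose.

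The same direction was mostly kept from 6 h to 24 h. Of the 77 tested members, 31 fell at both times, 3 rose at both, and none was called in opposite directions. In other fits 1 member was: *MRPL52* on library size only (-0.24 at 6 h and 0.17 at 24 h) and *MRPS18C* with the block and offsets (-0.197 and 0.27). A further 7 fell at 6 h only, 6 fell at 24 h only, 3 rose at 6 h only, 4 rose at 24 h only, and 23 passed the threshold at neither time. How many of all tested genes were called at both times was not counted, so these counts have no background beside them. The log2 fold changes of the members at both times had a Pearson r of 0.827 and a Spearman rho of 0.854 across 77 genes, which are not independent replicates and share libraries at each time, and 69 had the same sign. Over all 15979 tested genes the values were 0.646 and 0.629, and 11932 had the same sign, so similarity between the times was not particular to these genes.

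The size of the response differed between the times for 9 members. When edgeR tested the 24 h response against the 6 h response, 5 members (where 12% of all tested genes were higher) had a more positive response at 24 h and 4 (where 13.8% of all were lower) a more negative one, both shares under the background. With the replicate block the counts were 6 and 7, where 2945 and 3339 of all 15979 tested genes were called. *MRPL34* (difference 0.53, adjusted p = 0.00508) and *MRPS26* (0.42, adjusted p = 0.0197) had fallen further at 6 h than at 24 h. *MRPL23* (-0.52, adjusted p = 0.00504) was lower at 24 h chiefly. *MRPL52*, of the central protuberance, had -0.26 at 6 h and 0.08 at 24 h, a difference of 0.34 (adjusted p = 0.0258). *MRPS18A* (0.36, adjusted p = 0.0391) and *MRPS18C* (0.32, adjusted p = 0.0428) had risen at 24 h. Leaving out any of the 12 libraries moved at least 1 of the 2 counts by over 1.5 times, to between 1 and 6 more positive and 1 and 4 more negative, and under each of these *MRPL34* and *MRPL23* passed the threshold.

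**Figure D4:**
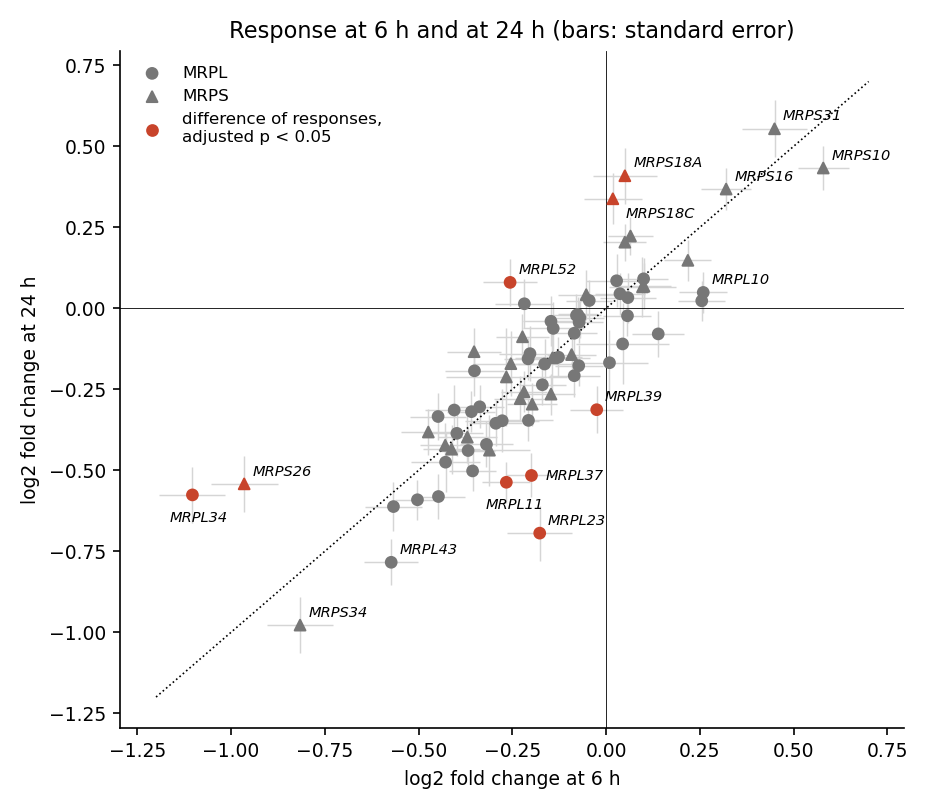
Each point is 1 of 77 genes, with the log2 fold change at 6 h on the horizontal axis, that at 24 h on the vertical axis and the standard errors as bars, circles for MRPL and triangles for MRPS genes. Most points follow the dotted line of equal response (r = 0.827), and the 9 red points are genes whose responses differed between the times at an adjusted p below 0.05.

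The promoters of members that fell and of members that rose are shown to let both be read side by side. RefSeq windows of GRCh38.p14, from 250 bases before to 50 after the start, matched 69 of the 78 members, and 150 bases before and 30 bases from the start on are printed, on the gene's strand. Capitals mark the letters of the ETS motif CCGGAAGT (on the minus strand ACTTCCGG) and the YY1 motif AAGATGGC. *MRPS34* is at chr16:1773105-1773284, *MRPL20* at chr1:1407264-1407443, *MRPS10* at chr6:42217832-42218011 and *MRPS18A* at chr6:43687762-43687941, all on the minus strand. They are examples and do not stand for their classes: both printed members that fell hold the ETS letters, against 8 of the 31 that fell at both times. Near matches of the ETS letters, which *MRPS10* and *MRPS18A* also hold, are not marked.
MRPS34 (fell at both times): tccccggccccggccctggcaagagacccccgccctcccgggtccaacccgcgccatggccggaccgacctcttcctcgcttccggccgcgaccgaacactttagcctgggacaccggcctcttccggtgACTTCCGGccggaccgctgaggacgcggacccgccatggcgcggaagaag
MRPL20 (fell at both times): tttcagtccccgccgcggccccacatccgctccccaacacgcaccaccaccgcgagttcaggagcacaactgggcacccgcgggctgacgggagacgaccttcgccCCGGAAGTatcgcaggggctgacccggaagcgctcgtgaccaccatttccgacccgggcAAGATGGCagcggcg
MRPS10 (rose at both times): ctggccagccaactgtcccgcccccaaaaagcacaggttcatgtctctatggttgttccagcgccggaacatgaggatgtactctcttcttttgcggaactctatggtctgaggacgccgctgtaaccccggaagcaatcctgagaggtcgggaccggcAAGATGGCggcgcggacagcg
MRPS18A (rose at 24 h): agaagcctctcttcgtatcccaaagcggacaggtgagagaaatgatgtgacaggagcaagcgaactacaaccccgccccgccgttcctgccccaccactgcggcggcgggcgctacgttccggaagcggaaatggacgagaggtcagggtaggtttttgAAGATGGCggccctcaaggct

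The ETS letters, searched on both strands, were in the windows of 12 of the 69 members (17.4%), against 4.14% of all 35116 windows. They were in 8 of the 31 members that fell at both times, in none of the 8 matched members that rose at either time and in 3 of the 18 matched members called at neither time. The YY1 letters were in 21 members (30.4%), against 2.89% of all windows. They were in 8 of the 31 that fell at both times, in 3 of the 8 that rose and in 6 of the 18 called at neither time, so they occurred in all classes of response. In *MRPL20*, *MRPS10* and *MRPS18A* they lie just after the start of the transcript. The NRF1 core CGCATGCG was in 3 members (4.35%, against 2.02% of all windows), the E-box CACGTG in 9 (13.0%, against 7.26%) and the cyclic AMP response element TGACGTCA in 1 (1.45%, against 1.85%). The ATF4-type composite TGATGCAA was in none of the 69, against 0.866% of all windows. A member counts here if any of its windows holds the letters, and some members have several. A match describes letters and was not tested for binding.

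The other parts of the mitochondrial translation system were counted from lists. Of 5 ribosome components whose symbols lie outside the naming pattern, 4 fell at both times. *GADD45GIP1*, a large subunit protein, had 69.9 to 72.5 CPM in DMSO and 54.4 to 55.3 CPM in NXP800 at 6 h. At 24 h it had 77.5 to 83.5 CPM in DMSO and 47.7 to 58.5 CPM in NXP800. Its log2 fold changes were -0.38 and -0.57. The small subunit proteins *AURKAIP1* (-0.31 and -0.54), *CHCHD1* (-0.37 and -0.46) and *PTCD3* (-0.36 and -0.28) were the others, all with edgeR adjusted p of at most 0.00848, although *PTCD3* at 24 h lost its call on library sizes without TMM scaling (adjusted p = 0.0717) and *AURKAIP1* at 6 h was -0.19 with the block and offsets. *DAP3*, a GTP-binding small subunit protein, had 0.14 at 6 h (adjusted p = 0.0768, or 0.029 with the replicate block) and rose by 0.16 at 24 h (adjusted p = 0.0335). Without any one of the 3 DMSO 24 h libraries or NXP800 24 h replicate 1 its adjusted p at 24 h was 0.061 to 0.177, and on library size only its value was 0.25.

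These lists are read against 27.8% lower and 25.0% higher among all tested genes at 6 h, and 28.6% and 27.5% at 24 h. Of 32 assembly factors, 12 (37.5%) fell and 5 (15.6%) rose at 6 h, and 15 (46.9%) fell and 6 (18.8%) rose at 24 h. The largest called changes at 6 h were in the GTPase *GTPBP10* (0.71) and the pseudouridine synthase *TRUB2* (-0.58), and at 24 h in the endoribonuclease *YBEY* (0.94) and the ribosome binding factor *RBFA* (-0.82), each with an edgeR adjusted p of at most 2.53e-06. Of 18 mitochondrial translation factors, 4 fell and 4 rose at 6 h (22.2% each, under the shares of all genes), and 8 (44.4%) fell and 3 (16.7%) rose at 24 h. The elongation factor *TSFM* had the largest fall at both times (-0.49 and -0.56), the release factor *MTRF1L* the largest rise at 6 h (0.35) and the initiation factor *MTIF2* the largest rise at 24 h (0.58), with edgeR adjusted p of at most 0.000543. Of 15 genes of mitochondrial transcription and its regulators, 3 (20%) fell and 4 (26.7%) rose at 6 h, and 5 (33.3%) fell and 3 (20%) rose at 24 h. *MYC* rose most (2.36 and 1.44, adjusted p = 2.08e-09 and 3.4e-07). The coactivator *PPARGC1B* fell most at 6 h (-1.04, adjusted p = 4.62e-06) and the mitochondrial DNA polymerase *POLG* at 24 h (-0.63, adjusted p = 2.23e-06). None of 15 mitochondrially encoded genes passed the threshold in edgeR or DESeq2 at either time, and at an unadjusted p below 0.05 edgeR gave 0 genes at 6 h and 1 gene, higher, at 24 h. By contrast, with the replicate block 2 rose and 3 fell at 6 h, and 1 rose and 2 fell at 24 h. These genes varied much between libraries: *COX1* ranged from 4422.0 to 9177.8 CPM in DMSO at 6 h. Its standard error there was 0.269, against a median of 0.071 for the members. *RNR2* had 0.44 at 24 h (edgeR adjusted p = 0.0766) without overlap between the groups. A lack of calls therefore does not show unchanged levels.

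The nuclear genes of the respiratory chain and of the cytosolic ribosome were counted beside the members. Of all tested genes 27.8% were lower and 25.0% higher at 6 h, and 28.6% and 27.5% at 24 h. Of 79 tested nuclear genes of the respiratory chain and the ATP synthase, 55 (69.6%) fell and none rose at 6 h. The rises were also 0 at an unadjusted p below 0.05, with the block and in DESeq2. With the block 4622 and in DESeq2 3884 of all 15979 tested genes rose at 6 h. At 24 h 64 (81.0%) of the 79 fell and 1 (1.27%) rose. The medians were -0.27 at 6 h and -0.41 at 24 h. Of 83 tested cytosolic ribosomal protein genes, 15 (18.1%) fell and 2 (2.41%) rose at 6 h, and 5 (6.02%) fell and 20 (24.1%) rose at 24 h, all under the shares of all tested genes, with medians of -0.11 and 0.06. The medians of the mitochondrial ribosomal protein genes, -0.18 and -0.17, were between those of these lists at both times. These lists share libraries, and the difference between them was not tested.

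Members with GC-rich transcripts fell more often. Ordered by the GC content of the transcript, the lowest 26 genes (34.8 to 44.6% GC) had 7 falls at 6 h and 6 at 24 h, the middle 26 (45.0 to 51.9%) had 13 at each time, and the highest 25 (52.3 to 66.7%) had 18 at each time. Over all tested genes in the same GC ranges, 21.4, 27.9 and 37.2% were lower at 6 h and 25.9, 28.7 and 35.0% at 24 h. Across the 77 members the log2 fold change had a Pearson r with percent GC of -0.427 at 6 h and -0.524 at 24 h, and Spearman rho was -0.414 and -0.508. Over 14636 tested genes Pearson r was -0.17 and -0.0405. When edgeR was run with the replicate block plus GC and length offsets, the falls in the 3 GC classes were 19, 16 and 16 at 6 h and 10, 15 and 18 at 24 h. In that fit 51 members fell and 8 rose at 6 h, and 43 fell and 8 rose at 24 h. The shares of all tested genes in that fit are not given, so these counts have no background beside them. The part of GC content in the response was not tested further.

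**Figure D5:**
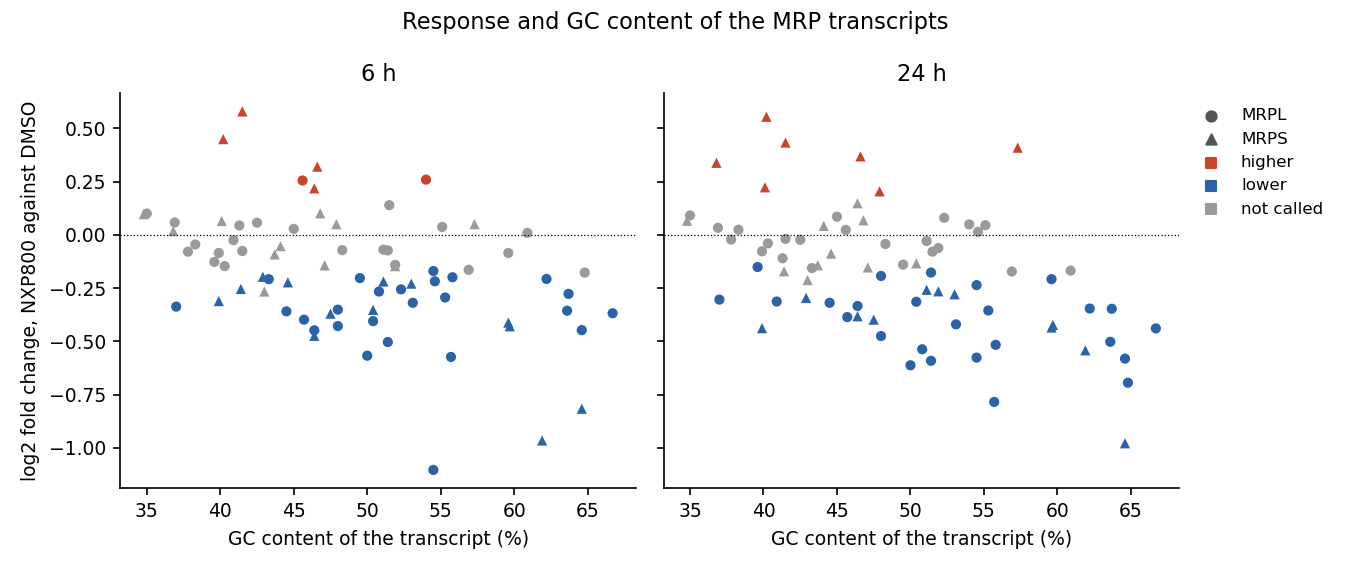
The log2 fold change of the 77 genes (vertical axis) is plotted against the GC content of the transcript in percent (horizontal axis) at 6 h (left) and 24 h (right), circles for MRPL and triangles for MRPS genes. Genes that fell (blue) are 18 of the 25 most GC-rich at each time, and 7 and 6 of the 26 least GC-rich.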

How the data were processed

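RNA from MNNG/HOS cells was sequenced as 12 mRNA libraries. Per gene, the authors deposited unnormalized counts: reads were trimmed (fastp), aligned to hg38 (STAR) and assigned to RefSeq genes (htseq-count). The strand setting and the treatment of reads on overlapping genes are not given in the sources used here. Entries that name no gene (no feature 2.73 to 8.14%, ambiguous 2.10 to 2.43%) were left out. The analysis used edgeR 4.0.16 under R 4.3.3. The filterByExpr rule kept 15979 of 43236 genes, scaling was by TMM, and 1 model of the 4 conditions was fitted by the quasi-likelihood method. A gene was called below an adjusted p of 0.05 (Benjamini-Hochberg). The number of counts makes counting error small against the spread between replicates. Alternatives were another scaling, other filters, DESeq2 1.42.0, a threshold of 0.01, single time points, the replicate block alone or with GC and length offsets (known for 91.6% of tested genes), another placing of 3 MRPS genes, each library left out, and, chosen after seeing the data, subunit sums as shares of unscaled counts. Only the reported edgeR fit was tried on simulated counts, and only its 6 h contrast was read. The simulated spread between libraries was smaller than in these data. The alternatives, the 24 h contrast, the difference between the times, the sums and the motif search were not simulated.

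Deviations from the group means correlated with r of 0.159 to 0.329 between same-numbered DMSO and NXP800 libraries and at most 0.058 between others. The fits with the replicate block therefore took the replicate numbers as pairs. The reported fit used the means of the conditions only, so its p-values are not paired. The numbers in the labels are the only source of this pairing. The members and lists were chosen with earlier results of these data known. The genes named are, per time, the 8 strongest rises and 8 strongest falls among called members whose mean log2 CPM was 1 or more, with no overlap between groups, the 6 largest called differences between the times, fixed members (*MRPL10*, *MRPL12*, *MRPL45*, *MRPL58*, *MRPS12*, *MRPS18A*, *MRPS18B*, *MRPS18C*, *MRPS30*), the 5 components outside the pattern, the 5 highest and lowest levels per length, and the largest called change of each list. *MRPL50*, *MRPS31P5*, *VIM*, *EPCAM*, *MRPL11*, *MRPL37*, *MRPL39*, *COX1*, *RNR2* and the motifs were chosen after their values were seen. Gene positions are RefSeq's on GRCh38.p14, and lengths, GC content and exon overlaps, on either strand, are from GENCODE.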

Additional observations from a re-analysis of the deposited data

Results flagged for a closer look

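The responses of 9 members at 24 h and at 6 h differed in edgeR's test of the difference itself, which flagged them. The response at 24 h was more positive for *MRPL34* (0.53, adjusted p = 0.00508), *MRPS26* (0.42, adjusted p = 0.0197), *MRPS18A* (0.36, adjusted p = 0.0391), *MRPL52* (0.34, adjusted p = 0.0258) and *MRPS18C* (0.32, adjusted p = 0.0428). It was more negative for *MRPL23* (-0.52, adjusted p = 0.00504), *MRPL37* (-0.32, adjusted p = 0.0234), *MRPL39* (-0.29, adjusted p = 0.0474) and *MRPL11* (-0.27, adjusted p = 0.0356). *MRPL34* and *MRPL23* passed the threshold in all alternatives run, with differences of 0.42 to 0.60 and -0.62 to -0.45. The others lost their call in at least 4 alternatives each, most often when a library was left out or at an adjusted p below 0.01. Reads outside annotated genes were also more frequent at 6 h, and whether time or the set of libraries sets such a difference cannot be told apart.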

How the results depend on the processing

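The counts of members that rose or fell at 6 h and 24 h stayed within 1.5 times of the reported counts in every alternative run. Without 1 library, 26 to 37 fell and 6 to 7 rose at 6 h, and 33 to 40 fell and 7 to 9 rose at 24 h. The replicate block gave 44 falls and 7 rises at 6 h and 42 and 8 at 24 h, and lost no call. Calls also grew in number over all 15979 tested genes with the block. Their falls went from 4435 to 5331 at 6 h and from 4566 to 5294 at 24 h. Their rises went from 4000 to 4622 and from 4387 to 5117. The counts of differing responses (5 more positive, 4 more negative) were 9 and 2 on library size only, 2 more negative without a filter on low counts, 7 more negative with the replicate block, 12 and 14 with the replicate block and GC and length offsets, 1 and 1 at an adjusted p below 0.01, and 1 to 6 and 1 to 4 without 1 library.

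Medians of the log2 fold change kept their sign. For MRPL genes at 6 h the median was -0.14 with only the 6 libraries of the time point and -0.21 to -0.16 without 1 library. For MRPS genes at 6 h it was -0.16 with DESeq2 size factors, -0.15 on library size only, -0.14 without a filter, -0.14 with only the 6 libraries, -0.20 with the block and offsets, -0.13 in DESeq2, -0.21 to -0.14 without 1 library and -0.22 with the other placing of 3 MRPS genes. At 24 h it was -0.088 for MRPL genes and -0.056 for MRPS genes on library size only, and -0.22 to -0.10 and -0.21 to -0.08 without 1 library.

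Sign changes among the genes named in the text, none of them called in the reported fit, were these. With the replicate block and offsets these were *MRPL15* (-0.005) and *MRPL42* (-0.067) at 24 h, and at 6 h *CD68* (0.041), *MRPL45* (-0.073), *MRPS18C* (-0.197, adjusted p = 0.00206), *MRPS21* (-0.021) and *MRPS35* (-0.088). On library size only they were *MRPL21* (0.059), *MRPL58* (0.009) and *PPARGC1B* (0.005) at 24 h (of all members 9 turned sign there, none of them called, and 0 at 6 h), and with only the 6 libraries *MRPL39* (0.008) at 6 h. Without 1 library the ranges that crossed 0 were, at 6 h, *CD68* (-0.121 to 0.062), *MRPL39* (-0.070 to 0.030), *MRPL45* (-0.052 to 0.080), *MRPS18A* (-0.048 to 0.109) and *MRPS18C* (-0.064 to 0.080), and at 24 h *MRPL21* (-0.083 to 0.021), *MRPL42* (-0.021 to 0.079) and *PPARGC1B* (-0.168 to 0.011). The causes of these changes were not tested. With 3 libraries a condition and standard errors of 0.053 to 0.161, changes well under 0.2 on the log2 scale were mostly not called.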
